A study of Homo sapiens with 12 samples.

Results

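The genes N4BP2L1, KLHL24, CLIP3, PLSCR4, CCDC18-AS1, FBXO32 and MTURN had some of the largest increases of array signal when PI3K was blocked in synovial sarcoma (SS) cell lines. They are 7 of 12132 genes tested. They were chosen by their change at 3 µM ZSTK474 against no drug, as the top increases that did not belong to another gene family taken separately, so their values in that comparison are a description and carry no test. On the list of all genes ordered by this change they held ranks 1, 4, 5, 6, 8, 9 and 10, and TXNIP, SELENOP and YPEL3 held the ranks between them. Just inside the choice lay MTURN with a log2 change of 2.45, and just outside it lay ABTB1 with 2.43, BCL6 with 2.42 and the pseudogene GTF2IP20 with 2.39.

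SS is a sarcoma of soft tissue in which SS18 is fused to one of the SSX genes. According to the list of cell lines in the study, the fusion is SS18-SSX1 in Aska-SS and Yamato-SS, and SS18-SSX2 in Fuji and SYO-1. Cells were exposed for 24 h to no drug (0 µM, the untreated group), to 0.3 µM or to 3 µM ZSTK474, a pan-PI3K inhibitor, and total RNA was read on Affymetrix U133 Plus 2.0 GeneChips with 1 array per line and dose, 12 in all. Each array holds 1 established cell line, and the labels do not say whether the doses of a line were separate cultures, so the 4 lines stand in for replicates and the spread between cultures of one line was not measured. Deposited signals had a trimmed mean of 500.1 on each array and medians of 60.1 to 85.3. Of 5 markers of SS (TLE1, BCL2, CD99, VIM and SS18) 5 lay above the signal filter in these arrays, against 0 of 6 leukocyte markers, 1 of 4 endothelial markers (PECAM1) and 0 of 4 skeletal muscle markers. The ratio of 3′ to 5′ signal of actin, a sign of RNA integrity, was higher at 3 µM than in the untreated array of every line, by 0.12 to 0.59 on the log2 scale with the largest value in Fuji, and that of GAPDH moved by -0.13 to 0.15. The part of these ratios in the changes described here was not tested.

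PI3K makes a membrane lipid that activates the kinase Akt, and Akt in turn phosphorylates the FOXO transcription factors and keeps them out of the nucleus. When PI3K is blocked, FOXO factors can enter the nucleus and switch on genes of catabolism, cell cycle arrest and cell death. Among the 7 genes, FBXO32 is a well known FOXO target. It encodes atrogin-1, the F-box subunit of an SCF ubiquitin ligase known from muscle wasting. KLHL24 is a Kelch adaptor of CUL3 ubiquitin ligases, CLIP3 is a CAP-Gly protein of the Golgi and plasma membrane that binds Akt, PLSCR4 belongs to the phospholipid scramblases, MTURN (maturin) is a regulator of neural progenitor differentiation, N4BP2L1 is a little studied relative of the NEDD4 binding protein N4BP2, and CCDC18-AS1 is a long non-coding RNA antisense to CCDC18.

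The sequences shown here are the stretches of the gene promoters with letters like those that FOXO factors bind. RefSeq promoter sequences of the build GRCh38.p14, from 250 bases before to 50 bases after each start site, were given for 6 of the 7 genes, all but FBXO32, in 8 entries since CLIP3 and PLSCR4 have 2 starts each. The letters TAAACA, the core of forkhead sites, were searched on both strands and found in 4325 of all 35116 promoter entries (12.3%), and in 3 of the 8 entries here, 1 each of CLIP3, PLSCR4 and MTURN. The letters CAAAACA, which do not overlap with TAAACA, were found in 4.92% of all entries and in KLHL24. Each window below holds 30 bases and reads 5′ to 3′ on the strand of the gene, with the matched letters or their reverse complement in capitals.
KLHL24, chr3:183635580-183635609, plus strand, match 32 bases before the start: ctgacgctcagTGTTTTGgcccggacggtc
CLIP3, chr19:36032644-36032673, minus strand, match 26 bases before the start: tgaatcccgagaTAAACAaacccggggagg
PLSCR4, chr3:146251067-146251096, minus strand, match 21 bases past the start: gcgcgcttacttTGTTTAtaacttgaaaaa
MTURN, chr7:30134776-30134805, plus strand, match 198 bases before the start: atgctccgggttTGTTTAaaaataaagggg
MTURN, chr7:30134989-30135018, plus strand, match 15 bases past the start: ccgcaccgcatgTAAACAgtcccagccggc
The second MTURN match is preceded by G and so also holds GTAAACA, found in 3.42% of all entries, and the CLIP3 and PLSCR4 matches hold ATAAACA, found in 4.24%. The entries of N4BP2L1 and CCDC18-AS1 hold neither TAAACA nor CAAAACA. The letters were chosen with these sequences in view, and a match describes the letters only.

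In each of the 4 cell lines the signal of each of the 7 genes was higher at 0.3 µM than in the untreated array, and higher still at 3 µM with the exception of CLIP3 in Aska-SS. All 28 pairs of gene and line were higher at 3 µM than untreated, 28 were higher at 0.3 µM, and 27 of 28 were higher at 3 µM than at 0.3 µM. Each of these counts shares its untreated or its 3 µM arrays with the choice of the genes, so they are a description. The untreated and 3 µM signals did not overlap across lines for 5 of the 7 genes, and 5.3% of all genes tested had every 3 µM signal above every untreated one. Across all genes tested, 22.6% were higher and 21.1% lower at 3 µM at an adjusted p under 0.05, and nothing is read from these shares since the same comparison chose these 7 genes. The median fitted log2 change of the 7 genes was 2.62 at 3 µM and 1.47 at 0.3 µM, and over all genes tested it was 0.01 and -0.0003. An array signal is relative to the other RNAs of the sample, and more cells with a transcript cannot be told apart from more transcript per cell.

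**Figure D1:**
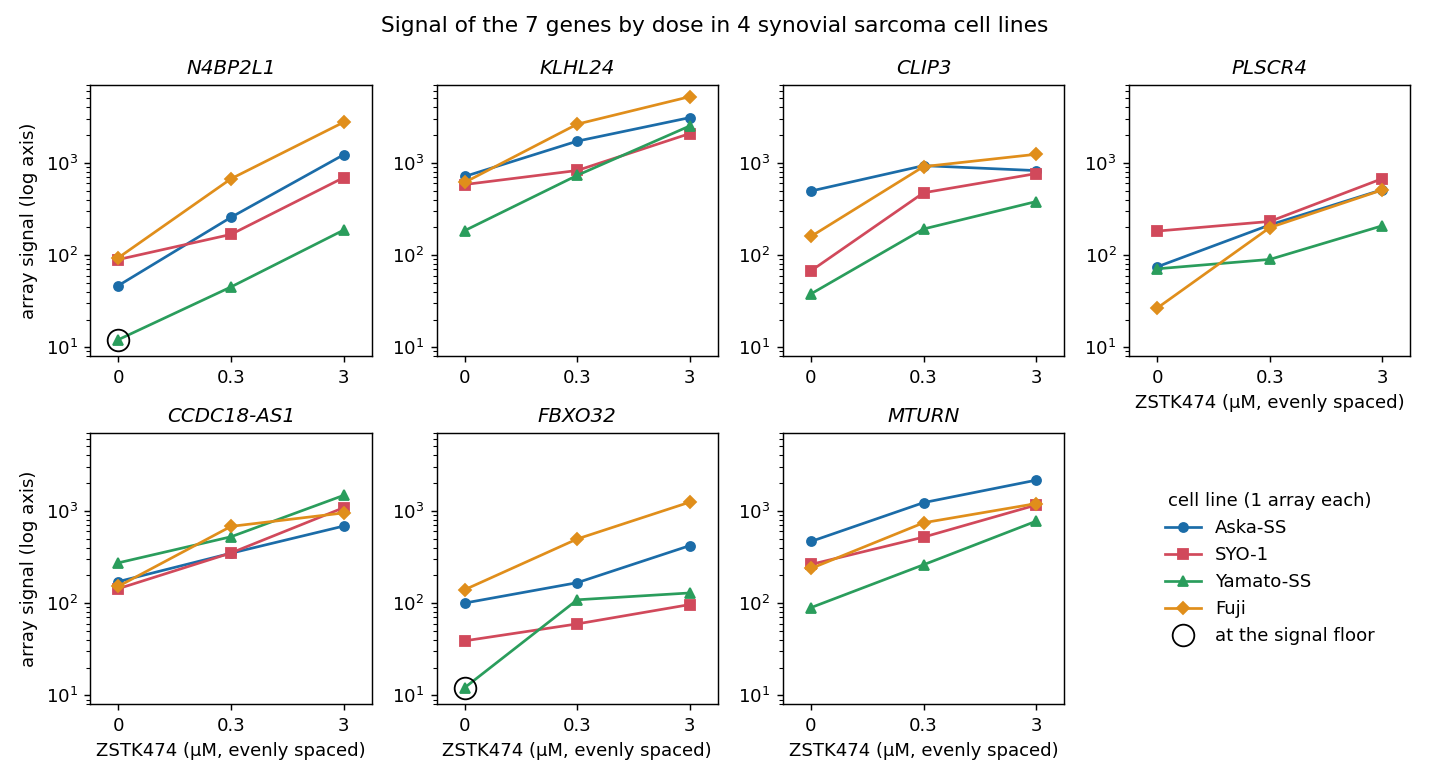
Array signal after quantile normalization (log axis) of the 7 genes in untreated cells and at 0.3 and 3 µM ZSTK474, with 1 line and 1 marker shape per cell line and 1 array per point. All 28 gene and line pairs are higher at 3 µM than untreated, and the circled arrays of Yamato-SS lie at the floor of 12.1.

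N4BP2L1 had the largest change of all genes tested. Its untreated signals were 46.7 in Aska-SS, 12.1 in Yamato-SS, 89.5 in SYO-1 and 93.7 in Fuji. At 0.3 µM they were 257 in Aska-SS, 45.1 in Yamato-SS, 168 in SYO-1 and 672 in Fuji. At 3 µM they were 1223 in Aska-SS, 186 in Yamato-SS, 691 in SYO-1 and 2756 in Fuji. Yamato-SS was the lowest line at each dose, but every 3 µM signal lay above every untreated one. The untreated signal of Yamato-SS was deposited as 1 and was raised to the floor of 12.1, the 20th percentile of the table, so the change in that line is at least 15.4-fold, beside 7.72-fold in SYO-1, 26.2-fold in Aska-SS and 29.4-fold in Fuji. The fitted log2 change was 4.12 (SE 0.29, n = 4 lines) at 3 µM, or 17.4-fold, a value that depends on that floor, and 2.03 (SE 0.29, n = 4 lines) at 0.3 µM.

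FBXO32, the muscle-wasting ubiquitin ligase subunit, was spread widely across the lines. Without drug its signals were 100.2 in Aska-SS, 12.1 in Yamato-SS, 39.0 in SYO-1 and 139.8 in Fuji. With 0.3 µM ZSTK474 they were 167 in Aska-SS, 109 in Yamato-SS, 59.5 in SYO-1 and 496 in Fuji. With 3 µM they were 420.2 in Aska-SS, 129 in Yamato-SS, 96.4 in SYO-1 and 1245 in Fuji. The groups overlapped, since the 3 µM signals of SYO-1 and Yamato-SS lay below the untreated signal of Fuji, although each line was higher with drug than without. The untreated array of Yamato-SS (deposited as 8.17) was again at the floor, so its change is at least 10.6-fold, and most of it was present at 0.3 µM, where the change was at least 8.97-fold. The fitted log2 change was 2.49 (SE 0.38, n = 4 lines) at 3 µM and 1.58 (SE 0.38, n = 4 lines) at 0.3 µM. The change at 0.3 µM was 1.05 without Yamato-SS, and that at 3 µM was 2.0 with the floor at the 40th percentile.

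KLHL24, the Kelch adaptor, had signals of 712 in Aska-SS, 184 in Yamato-SS, 582 in SYO-1 and 614 in Fuji in untreated cells. Its signals at 0.3 µM were 1721 in Aska-SS, 733 in Yamato-SS, 827 in SYO-1 and 2631 in Fuji. Its signals at 3 µM were 3095 in Aska-SS, 2516 in Yamato-SS, 2081 in SYO-1 and 5224 in Fuji. The untreated signals did not overlap with those of either dose, and the share of all genes with no overlap at 0.3 µM was not counted. Yamato-SS stood well below the other lines without drug and lay within their range at 3 µM, so it had the largest change, 13.7-fold, and SYO-1 had the smallest, 3.58-fold. On the log2 scale the fitted change was 2.70 (SE 0.27, n = 4 lines) at 3 µM and 1.47 (SE 0.27, n = 4 lines) at 0.3 µM.

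CLIP3, the Akt-binding CAP-Gly protein, had most of its change at the lower dose with the probe set that stands for it here, 212358_at. Its untreated signals were 495 in Aska-SS, 37.9 in Yamato-SS, 67.4 in SYO-1 and 159 in Fuji. At 0.3 µM they were 932 in Aska-SS, 192 in Yamato-SS, 474 in SYO-1 and 911 in Fuji. At 3 µM they were 825 in Aska-SS, 380.4 in Yamato-SS, 764 in SYO-1 and 1239 in Fuji. Aska-SS began highest and changed least, by 1.67-fold at 3 µM, against 11.3-fold in SYO-1, 10.03-fold in Yamato-SS and 7.78-fold in Fuji, and its untreated signal lay above the 3 µM signal of Yamato-SS. Within Aska-SS alone, CLIP3 ranked 1183 among all genes by change at 3 µM, and it ranked 2, 10 and 29 in SYO-1, Yamato-SS and Fuji. The fitted log2 change was 2.63 (SE 0.35, n = 4 lines) at 3 µM and 2.14 (SE 0.35, n = 4 lines) at 0.3 µM, where it was the largest of all genes tested.

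PLSCR4, the phospholipid scramblase, changed by unequal amounts in the lines at both doses. In untreated cells its signals were 74.6 in Aska-SS, 71.0 in Yamato-SS, 182 in SYO-1 and 26.7 in Fuji. At 0.3 µM its signals were 212 in Aska-SS, 89.7 in Yamato-SS, 232 in SYO-1 and 199 in Fuji. At 3 µM its signals were 512 in Aska-SS, 208 in Yamato-SS, 675 in SYO-1 and 509 in Fuji. The lower dose changed the signal by 7.45-fold in Fuji and 2.85-fold in Aska-SS but by 1.27-fold in SYO-1 and 1.26-fold in Yamato-SS, and the changes at 3 µM ran from 2.93-fold in Yamato-SS to 19.1-fold in Fuji. The untreated signal of SYO-1 lay above the 0.3 µM signal of Yamato-SS and below every 3 µM signal. The fitted log2 change was 2.62 (SE 0.39, n = 4 lines) at 3 µM and 1.27 (SE 0.39, n = 4 lines) at 0.3 µM, and the latter was 0.73 without Fuji.

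CCDC18-AS1, the antisense RNA, had the most even change of the 7 genes across lines at 3 µM. Untreated signals were 171 in Aska-SS, 274 in Yamato-SS, 144 in SYO-1 and 152 in Fuji. They were 348 in Aska-SS, 524 in Yamato-SS, 349.8 in SYO-1 and 679 in Fuji at 0.3 µM. They were 684 in Aska-SS, 1473 in Yamato-SS, 1082 in SYO-1 and 950.2 in Fuji at 3 µM. It was the only one of the 7 genes whose 3 groups of signals did not overlap with each other at all. How many of all genes tested have such a pattern was not counted. The changes at 3 µM ran from 4.0-fold in Aska-SS to 7.54-fold in SYO-1, with a fitted log2 change of 2.50 (SE 0.21, n = 4 lines), and at 0.3 µM the fitted change was 1.35 (SE 0.21, n = 4 lines).

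MTURN, the differentiation regulator, had the smallest SE. Untreated cells gave signals of 466 in Aska-SS, 89.3 in Yamato-SS, 263 in SYO-1 and 237 in Fuji. Cells at 0.3 µM gave 1229 in Aska-SS, 261 in Yamato-SS, 519 in SYO-1 and 743 in Fuji. Cells at 3 µM gave 2153 in Aska-SS, 773 in Yamato-SS, 1158 in SYO-1 and 1200.1 in Fuji. Each line was higher at each step and the order of the lines changed little, with Aska-SS highest and Yamato-SS lowest at every dose. The fitted log2 change was 2.45 (SE 0.17, n = 4 lines) at 3 µM and 1.39 (SE 0.17, n = 4 lines) at 0.3 µM.

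The next question was where the 0.3 µM level lay between the untreated and the 3 µM level. As a description that divides by the change the genes were chosen for, on the log2 scale the fitted change at 0.3 µM was 48.6% of that at 3 µM for PLSCR4, 49.2% for N4BP2L1, 54.1% for CCDC18-AS1, 54.3% for KLHL24, 56.9% for MTURN, 63.7% for FBXO32 and 81.5% for CLIP3. The level at 0.3 µM minus the midpoint of the other doses is a contrast that the choice by rank did not use. It was 0.83 for CLIP3 (95% interval 0.17 to 1.49), above 0 in 4 of 4 lines, with an adjusted p of 0.909 by limma. This value is from 212358_at. The dim CLIP3 probe set 235243_at had mean changes of 1.19 at 0.3 µM and 2.52 at 3 µM, which puts its 0.3 µM level slightly below the midpoint. The difference was 0.34 for FBXO32, 0.17 for MTURN, 0.12 for KLHL24, 0.10 for CCDC18-AS1, -0.03 for N4BP2L1 and -0.04 for PLSCR4, with intervals that include 0. CLIP3 was the only one whose interval, which is not adjusted for the number of genes, lay apart from 0. N4BP2L1 and FBXO32 passed the signal filter only through their arrays with drug, so their differences are a description. With the floor at the 40th percentile the difference was -0.26 for N4BP2L1 and 0.10 for FBXO32. The limma test called 0 of the 7 genes and 0 of all 12132 (0%) at an adjusted p under 0.05, and 625 genes had an unadjusted p under 0.05. When each line was left out in turn, the difference stayed above 0 for CLIP3 (0.75 to 0.93) and MTURN (0.06 without Fuji to 0.25 without SYO-1). It changed sign for the other 5 genes, which ran from -0.03 without Yamato-SS to 0.56 without Aska-SS for FBXO32, from -0.03 without Fuji to 0.29 without SYO-1 for KLHL24, and from -0.15 without Fuji to 0.22 without Yamato-SS for CCDC18-AS1. For N4BP2L1 it ran from -0.18 without Fuji to 0.14 without SYO-1 and for PLSCR4 from -0.31 without Fuji to 0.15 without SYO-1.

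The change at 3 µM was next compared between the SS18-SSX1 lines and the SS18-SSX2 lines, with 2 lines each. CLIP3 changed by 2.03 on average in the SS18-SSX1 lines and by 3.23 in the SS18-SSX2 lines, a difference of -1.20 (SE 0.65, 95% interval -2.65 to 0.25, limma adjusted p = 0.776). The difference was -0.91 for PLSCR4 and -0.56 for CCDC18-AS1, also with larger changes in the SS18-SSX2 lines. The other 4 genes had larger mean changes in the SS18-SSX1 lines, with differences of 0.41 for N4BP2L1, 0.42 for MTURN, 0.48 for KLHL24 and 0.51 for FBXO32. No interval of the 7 genes excluded 0. The limma test called 0 of the 7 genes and 0 of all 12132 (0%), and 785 genes had an unadjusted p under 0.05. The interval for FBXO32 ran from -1.28 to 2.30, and 2 lines each cannot tell such a difference from none. The signs rest on single lines. When 1 line was left out, the difference ran from -2.47 without Yamato-SS to 0.08 without Aska-SS for CLIP3, from -2.09 without SYO-1 to 0.26 without Fuji for PLSCR4, and from -0.55 without SYO-1 to 1.38 without Fuji for N4BP2L1. It ran from -0.34 without Yamato-SS to 1.33 without Aska-SS for KLHL24, from -0.41 without SYO-1 to 1.43 without Fuji for FBXO32 and from -0.03 without Yamato-SS to 0.89 without Aska-SS for MTURN. CCDC18-AS1 alone kept its sign, with -0.77 to -0.36. With the floor at the 40th percentile N4BP2L1 gave -0.49 and FBXO32 -0.33, and with the mean of probe sets N4BP2L1 gave -0.33. N4BP2L1 and FBXO32 passed the signal filter only through their arrays with drug, so their fusion differences are a description. Without Aska-SS, which leaves Yamato-SS as the only SS18-SSX1 line, assumed to vary like the others, the test called 1 gene of all tested and none of the 7.

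**Figure D2:**
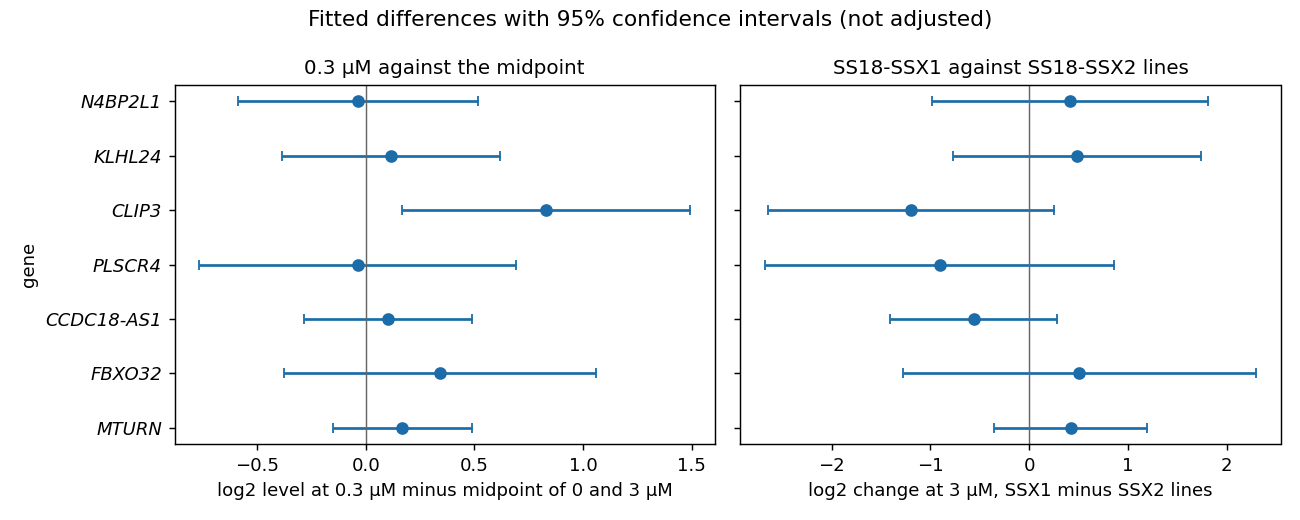
Fitted differences on the log2 scale (points) with unadjusted 95% confidence intervals (bars) for the 7 genes, on the left the level at 0.3 µM minus the midpoint of untreated and 3 µM, on the right the change at 3 µM in SS18-SSX1 lines minus that in SS18-SSX2 lines. The interval of CLIP3 on the left, 0.17 to 1.49, is the only one that does not include 0, and it comes from 1 of the 2 probe sets of CLIP3.

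The cell lines differed in which genes moved most. The median change of the 7 genes at 3 µM was 2.12 in Aska-SS, 3.33 in Yamato-SS, 2.14 in SYO-1 and 3.09 in Fuji, and at 0.3 µM it was 1.27, 1.90, 0.90 and 2.16 in the same order. SYO-1 had the smallest change of N4BP2L1, KLHL24, FBXO32 and MTURN and the largest of CLIP3 and CCDC18-AS1. Yamato-SS had the lowest untreated signal for 5 of the 7 genes and the highest for CCDC18-AS1, and Fuji had the highest 3 µM signal for 4. For 4 of the 5 genes with no array at the floor the lines lay closer together at 3 µM than untreated, the SD of log2 signal over lines being 0.71 against 1.61 for CLIP3, 0.57 against 0.90 for KLHL24, 0.61 against 0.99 for MTURN and 0.74 against 1.13 for PLSCR4. For CCDC18-AS1 it was 0.46 against 0.42. How often the lines lay closer together over all genes was not counted, and the genes were chosen for their change between these groups. The untreated SDs of N4BP2L1 and FBXO32 depend on the floor and are not compared. Among the 100 largest increases within a single line at 3 µM were 6 of the 7 genes in Aska-SS, in Yamato-SS and in SYO-1 and all 7 in Fuji. At 0.3 µM they were 4 in Aska-SS, 5 in Yamato-SS, 2 in SYO-1 and 7 in Fuji. These counts are a description, since high ranks at 3 µM follow largely from the choice of the genes. The changes at 0.3 µM share the untreated arrays that the choice used.

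The array holds 27 probe sets annotated with 1 of these 7 genes and no other, and 15 of them passed the signal filter. Passing favours probe sets that are bright at any dose, so counts over these 15 say little about the rest. All 15 were higher at 3 µM in 4 of 4 lines, and of the 12 dim ones 6 were. Of the 15, 7 stand for the genes and were chosen for this rise, so only the other 8 can bear on agreement. KLHL24 had 5 probe sets that passed, with mean log2 changes from 1.29 to 2.70. N4BP2L1 had 8, of which 3 passed, with 4.12 for 213375_s_at, 2.26 for 214906_x_at and 2.21 for 217197_x_at, and the suffixes mark probes that similar transcripts may share. Another pair of N4BP2L1 probe sets, 211390_at and 214886_s_at, were each at the floor on 11 of 12 arrays. FBXO32 had 7, of which 225803_at gave 2.49 and 225328_at gave 2.76, and the dim ones ran from -0.46 to 2.73. For CLIP3 the dim 235243_at, at the floor on 3 arrays, gave 2.52 beside 2.63 for 212358_at, and in Aska-SS it gave 2.07 where 212358_at gave 0.74. At 0.3 µM 235243_at gave 1.19 and was higher in 3 of 4 lines, beside 2.14 and 4 of 4 lines for 212358_at. The small change of CLIP3 in Aska-SS and the large share of its change at 0.3 µM were thus seen with 1 of its 2 probe sets.

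The probe sets of MTURN and CCDC18-AS1 differed too. For MTURN, 226018_at gave a mean log2 change of 2.45 and 227000_at gave 0.67, both higher in 4 of 4 lines. For CCDC18-AS1, 227074_at gave 2.50, and the dim 230073_at gave -0.92 and was lower in 4 of 4 lines. PLSCR4 had 1 probe set. With the mean of the probe sets that passed in place of the brightest, the change at 3 µM was 2.86 for N4BP2L1, 2.04 for KLHL24 and 1.56 for MTURN, and at 0.3 µM it was 1.23 for N4BP2L1 and 0.84 for MTURN. Which transcript or strand each probe set reads was not analysed here.

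**Figure D3:**
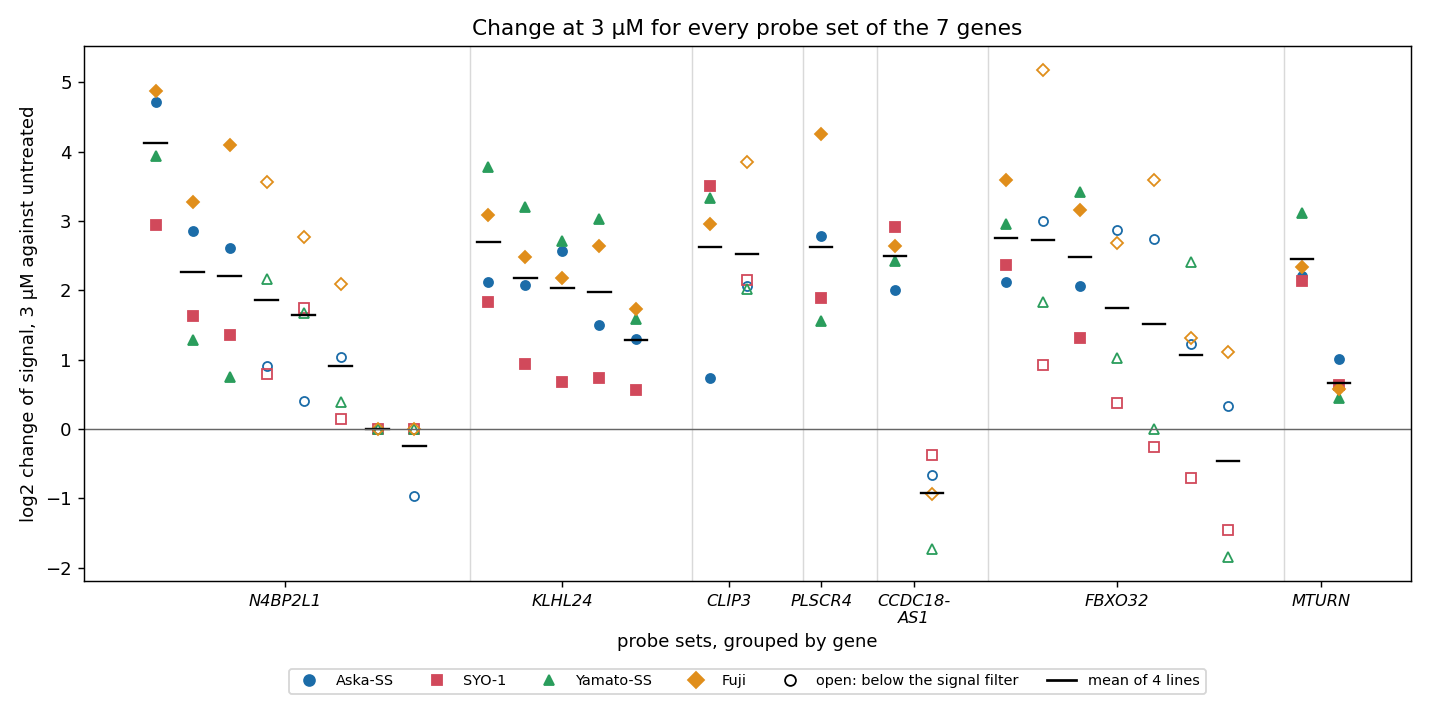
Log2 change of signal at 3 µM against untreated in each cell line for all 27 probe sets of the 7 genes, ordered within a gene by the mean of the 4 lines (bar). Filled markers are the 15 probe sets that passed the signal filter, all above 0 in every line, open markers are the 12 dim ones, and points at exactly 0 are arrays that were at the floor at both doses. Of the filled ones, 7 stand for the genes and were chosen for this rise.

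CCDC18, the coiled-coil gene on the strand opposite to CCDC18-AS1, had lower signal at 3 µM. Its fitted log2 change was -0.97 (SE 0.19, n = 4 lines, limma adjusted p = 0.00152), lower in 4 of 4 lines, and its other probe sets that passed gave mean changes of -0.35 and -0.54. The nearest tested genes on both sides of each of the 7 were 14 in all, with a median change of -0.02. Of these, 2 rose (N4BP2L2 beside N4BP2L1 by 0.50 and YEATS2 beside KLHL24 by 0.46), 3 fell (CCDC18, ALKBH6 beside CLIP3 with -0.66 and PLOD2 beside PLSCR4 with -0.49) and 9 did not pass, where 22.6% of all genes tested were higher and 21.1% lower. PLSCR1, the scramblase gene nearest to PLSCR4 among those tested, gave 0.11 with an adjusted p of 0.393 by limma. FAM91A1, the nearest tested gene on one side of FBXO32, gave -0.001, and DR1, on the other side of CCDC18-AS1, gave -0.15. These neighbours were not used in choosing the 7 genes.

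The relatives and partners of the 7 genes were followed in 6 lists of 148 genes, of which 114 were tested at 3 µM. Over all 6 lists 44 genes were higher, 13 lower and 57 not called by limma at an adjusted p under 0.05, with a median change of 0.23. For comparison, 22.6% of all genes were higher and 21.1% lower. Of the FOXO factors and known FOXO targets, 19 of 26 tested genes were higher (73.1%) and 1 lower, with a median change of 0.79. The 4 with the smallest adjusted p were BCL6, a transcriptional repressor, with a change of 2.42, CDKN1B, which encodes the cell cycle inhibitor p27, with 1.03, FOXO3 itself with 1.47 and the stress gene GADD45B with 0.78. GADD45A, with -0.45, was the only one that fell. The list of 32 genes was drawn up with earlier results of these data known, so its share is no independent support. Its genes FOXO4, BBC3 (PUMA), TRIM63, ERBB3, PDK4 and TNFSF10 were not tested. FBXO32 belongs to the same group of targets but was left out of the list as one of the 7.

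The families to which the 7 genes belong by structure held genes that rose and genes that fell. Of CUL3, RBX1 and the Kelch adaptors, 9 of 36 were higher (25%) and 6 lower (16.7%), with a median change of 0.09. KLHL7 rose by 0.82, KLHL35 by 1.04 and KLHL28 by 1.11, and RBX1, the RING subunit of the ligase, fell by 0.67. Of SKP1, CUL1 and the F-box genes, 8 of 28 were higher (28.6%) and 5 lower (17.9%), with a median of 0.11. FBXO25, the closest relative of FBXO32, rose by 1.0, FBXO3 by 0.77, FBXO17 by 0.58 and FBXO21 by 0.51. None of these changes reached the 2.70 of KLHL24 or the 2.49 of FBXO32, which follows from the choice of the 7 genes by rank.

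Smaller families were also counted. Of 9 CAP-Gly genes, 3 were higher and 1 lower with a median of -0.02. The CLIP3 relatives CLIP2 and CLIP4 rose by 1.02 and 0.98 and CEP350, a centrosome protein, by 0.44, and TBCB, a tubulin folding cofactor, fell by 0.33. Of 12 scramblases and flippases, 4 were higher and 0 lower with a median of 0.20, among them the flippases ATP10D with 0.82 and ATP11B with 0.49, the scramblase ANO6 with 0.56 and the flippase subunit TMEM30A with 0.29. Of 3 tested N4BP genes, N4BP2L2 was higher, N4BP2 gave 0.25 and N4BP1 gave -0.14, neither of which passed. With cell line left out of the model, 3 of the 114 genes and 383 of all genes passed in place of 57 and 5304. Without Aska-SS 5 genes of the Kelch list were higher, and 3 of the SCF list and 0 of the FOXO list were lower. Without SYO-1 3 genes of the Kelch list and 3 of the SCF list were lower and 2 N4BP genes higher, and without Fuji 2 of the FOXO list were lower. The call of TBCB was lost without Aska-SS, SYO-1 or Fuji, without the filter or the variance trend and with the mean of probe sets, and with that mean 1 scramblase or flippase and 2 N4BP genes were higher.

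**Figure D4:**
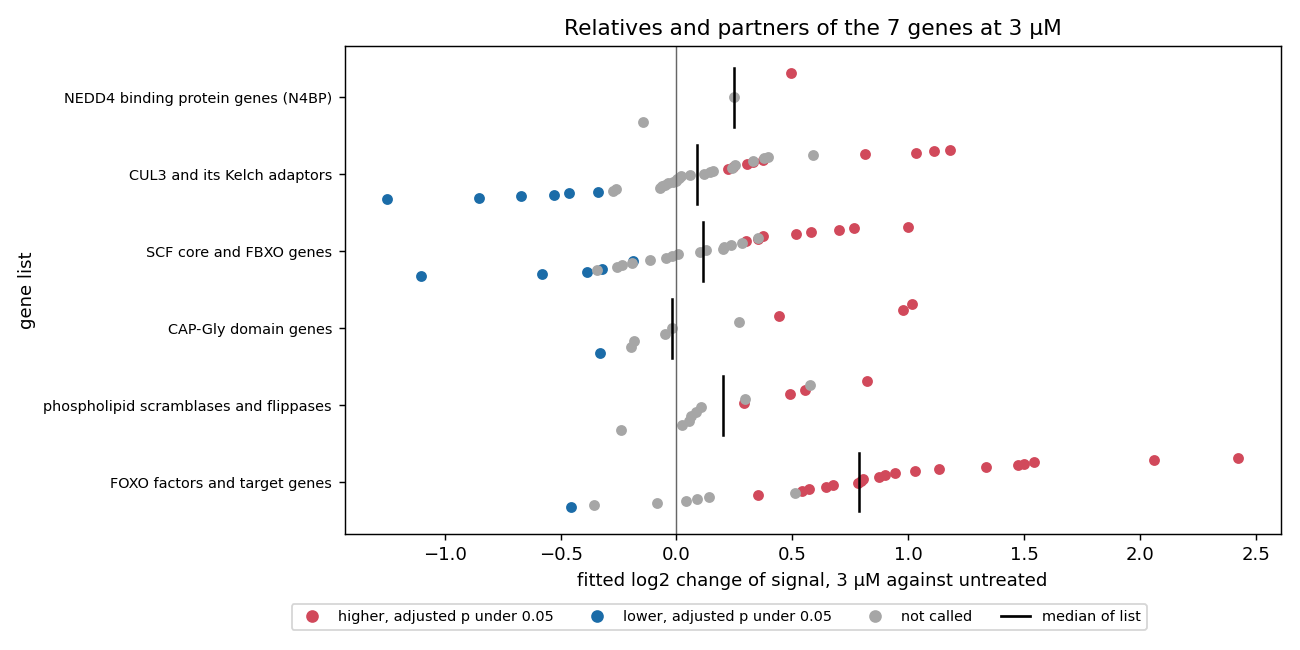
Fitted log2 change of signal at 3 µM against untreated for the 114 tested relatives and partners of the 7 genes in 6 lists, with 1 point per gene, coloured by the limma call at an adjusted p under 0.05, and a bar at the median of each list. The median is 0.79 for FOXO factors and targets and between -0.02 and 0.25 for the other lists.

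The 7 genes also moved alike within the lines. After each line's mean was taken out, pairs of the 7 genes correlated over the 12 arrays with r from 0.754 for CLIP3 and PLSCR4 to 0.986 for KLHL24 and MTURN, a description only, since all were chosen for the same change and share the same arrays. The genes with the pattern most like each of the 7 were found over the same 12 arrays. They were BICRAL, a SWI/SNF subunit, and EZH1, a histone methyltransferase, for N4BP2L1 (r = 0.997 and 0.994), and TMEM59 and NBR1, an autophagy receptor, for KLHL24 (r = 0.996 and 0.995). For MTURN they were VPS51, a vesicle tethering subunit, and EIF4B, a translation factor (r = 0.997 and 0.997), and for CCDC18-AS1 WDFY3, an autophagy scaffold, and ARID1B, another SWI/SNF subunit (r = 0.994 and 0.993). PLSCR4 was most like DIS3L, an RNA exosome nuclease, and MSL1, a histone acetylation cofactor (r = 0.991 and 0.990), and CLIP3 most like PIP4K2B, a lipid kinase, and COMMD6 (r = 0.984 and 0.983). FBXO32 had the weakest best matches, LOH12CR2 and the ubiquitin ligase adaptor KLHDC2 (r = 0.981 and 0.972). The changes of these 14 genes at 3 µM ran from 0.48 for MSL1 to 1.56 for EZH1. That they were smaller follows from the choice of the 7 genes by rank. These matches are a description too, since they were picked as the highest r of all genes tested and share the arrays used in the choice.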

How the data were processed

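RNA of 4 cell lines at 3 doses was measured on 12 arrays. Intensities on a linear scale were deposited, which the authors made with MAS5 (version not given in the sources used here) and scaled to a common trimmed mean. They were quantile normalized here, raised to the 20th percentile (12.1), and log2 values were taken. Of 54675 probe sets, 62 controls were left out, 41097 have 1 gene symbol, 1801 several and 11777 none in the annotation used. Probe sets with a mean above the 50th percentile were kept and the brightest stood for each gene, which gave 12132 genes. That mean runs over all 12 arrays, those with drug included. The mean untreated log2 signals of N4BP2L1 (5.54) and FBXO32 (5.66) lay below 5.87, the mean of a probe set that did not pass. N4BP2L1 and FBXO32 thus passed only through their arrays with drug. Tests used limma 3.58.1 in R 4.3.3 with dose and cell line in the model, moderated variances with a trend, and Benjamini-Hochberg adjustment at 0.05. Replicate numbers stand for cell lines, which pairs the arrays, and after the mean of each dose was taken out arrays correlated with r = 0.828 to 0.931 within a line and -0.430 to -0.0892 between lines. The fit was tested on simulated data.

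The members and lists were chosen with earlier results of these data known. Named beside them are the 3 genes next in rank, up to 4 genes per list with the smallest adjusted p, the nearest tested neighbours in the RefSeq gene order of GRCh38.p14 and the 2 most alike genes by Pearson's r. Alternatives were no quantile normalization, a floor at the 40th percentile or log2 of signal plus 16 in its place, the filter left out or set at the 65th percentile, the mean of probe sets, no trend, no block, the arrays of 0 and 3 µM alone, and leaving out each line. The number of arrays limits the precision.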

Additional observations from a re-analysis of the deposited data

Results flagged for a closer look

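Among 35 groups of 4 values, a single cell line lay far from the other lines in 2, where chance flags about 1 in 20. In untreated cells the log2 signal of KLHL24 was 7.525 in Yamato-SS, with a gap to the next line of 0.851 of the whole range. At 0.3 µM the log2 signal of PLSCR4 was 6.487 in Yamato-SS, with a gap of 0.838 of the range. Both gaps were above the 95% critical value of Dixon for 4 values, and both were low values of the same line.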

How the results depend on the processing

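The arrays are paired by cell line. With no replicate block, 383 genes passed at 3 µM in place of 5304, and 3 of the list genes in place of 57. The count for the fusion difference was 0 to 1 when each line was left out. Of 232 changes of the 7 genes recomputed under the alternatives, 227 moved by less than 1 SD over lines, 5 moved by more and 0 reversed. Of those 5, 4 came with the mean of probe sets. Part of the 232 could not move, since the filter and the block leave these fitted changes as they were. The mean of probe sets does so for genes with 1 probe set that passed. Genes chosen for large increases were also unlikely to reverse, so these counts say little about stability. Of 164 midpoint and fusion differences of the 7 genes under alternatives, 18 had the opposite sign. The fusion difference was -0.49 for N4BP2L1 and -0.33 for FBXO32 with the floor at the 40th percentile, and -0.33 for N4BP2L1 with the mean of probe sets, and the cause was not tested. With each line left out the fusion difference was -0.55 to 1.38 for N4BP2L1, -0.34 to 1.33 for KLHL24, -2.47 to 0.083 for CLIP3, -2.09 to 0.26 for PLSCR4, -0.41 to 1.43 for FBXO32 and -0.030 to 0.89 for MTURN. The midpoint difference was then -0.18 to 0.14 for N4BP2L1, -0.033 to 0.29 for KLHL24, -0.31 to 0.15 for PLSCR4, -0.15 to 0.22 for CCDC18-AS1 and -0.028 to 0.56 for FBXO32. PLSCR4 and FBXO32 lay below the filter at the 65th percentile and have no value there. Signals of N4BP2L1 and FBXO32 near the floor limit their changes in Yamato-SS.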
